A study of Mus musculus with 6 samples.

Results

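Type I interferon-stimulated genes are the genes that cells switch on after interferon alpha or beta binds its receptor. The 44 genes described here were taken by name from a list of such genes. The rule uses no measured value, although the list was drawn up with earlier results of these data known. All 44 were among the 25033 gene symbols listed for these libraries. All 44 also passed the filter on low counts, as did 12978 genes in total. RNA sequencing gave 6 libraries. The 3 control and the 3 inhibitor libraries came from green fluorescent (GFP+) haematopoietic stem cells (HSCs), sorted out of recipient bone marrow after transplantation. The labels give C57BL/6J as the strain, 6 months as the age and hematopoietic stem cells as the cell type in both groups, and tell the groups apart by what the transplanted cells had received, a control RNA or an inhibitor of the microRNA miR-31-5p. How the cells were marked with GFP, what the control RNA was, and the number of animals behind a library were not stated in the labels. The p-values below therefore measure only the spread between these libraries, which may be technical.

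The type I interferon receptor, made of IFNAR1 and IFNAR2, signals through the kinases JAK1 and TYK2. These activate STAT2, which joins IRF9 in the factor ISGF3. ISGF3 binds the interferon-stimulated response element, a repeat of GAAA half-sites, in the promoters of its targets. Another element, the gamma-activated site, is best known from interferon gamma targets such as Irf1. The products of the targets sense foreign nucleic acid, block viral entry, translation or replication, or damp the signal. In HSCs, type I interferon is known to push quiescent cells into division, and stem cells are known to keep part of this antiviral programme running without interferon.

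Libraries held 16873188 to 21245861 counts, and pairs of libraries of a group differed by more than counting noise (chi-square over its degrees of freedom, 3.04 to 16.8, compared with 36.1 to 55.7 across groups). The label of the cells was checked against markers. Controls held progenitor markers at high levels (Kit at 401.9 and Cd34 at 362.8 CPM, the counts scaled to library size) and HSC markers at low ones (Procr at 1.06, Slamf1 at 5.22 and Hlf at 6.95 CPM), beside 5202 CPM of the early neutrophil gene Mpo. The summed level of 13 conventional dendritic cell markers was 1024 to 1139 CPM in controls and 1926 to 1945 CPM in inhibitor libraries, with 9 of the 13 higher and 1 lower. Of 17 plasmacytoid dendritic cell markers, 16 were tested, of which 8 were lower and 1 higher, and the summed level was 1234 to 1442 against 1226 to 1253 CPM. The 13 megakaryocyte and platelet markers were all higher, with a summed level of 2028 to 2321 CPM in controls and 5099 to 5222 CPM in inhibitor libraries. The 13 HSC and progenitor markers summed to 1046 to 1081 and 1115 to 1163 CPM. Kit and Cd34 make up most of that sum and did not pass. Of the 12 tested markers of this list, 4 were higher (33.3%) and 2 lower (16.7%), shares not far from those of all tested genes. Procr (7.08-fold, to 7.55 CPM) and Slamf1 (3.24-fold, to 16.9 CPM) were higher in inhibitor libraries, and Hlf was 1.89-fold lower. Summed levels of 16 monocyte markers were 2013 to 2093 against 1630 to 1692 CPM, and those of 11 T and NK cell markers 83.1 to 95.7 against 29.8 to 36.1 CPM. Gzma of the last list was at 0 in every library. Of 15 neutrophil markers, 12 were tested, of which 5 were higher, S100a8 and S100a9 among them, and 6 lower, Mpo among them. The summed level of the 15 was 6628 to 7499 against 5873 to 6026 CPM. The precursor ribosomal RNA Rn45s had 3667 to 61656 counts in controls and 1784 to 3145 in inhibitor libraries. The part of these differences in the results below was not tested. In bulk libraries, fewer cells of a type and less RNA per cell cannot be told apart.

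Promoter sequences of the members were searched for both elements. RefSeq promoter windows (GRCm38.p6, the assembly also called mm10, 250 bases before to 50 after a start) were matched for 33 of the 44 by symbol, 43 windows in all. A pair of GAAA half-sites 2 bases apart, GAAANNGAAA on either strand, lay in the window of 14 of the 33 (42.4%), against 3.99% of all 27025 genes with a window and 3.87% of the tested ones. The palindrome of the gamma-activated site, TTCNNNGAA, lay in 9 of the 33 (27.3%), against 9.55 and 8.28%. A match of letters is a description and does not show that a factor binds. Windows of 9 members are printed because they stand for each outcome seen in the data. Ifit1, Oas3, Oas1a and Ddx58 were higher in the inhibitor group, Isg15 and Eif2ak2 did not pass the test, and Stat2, Ifitm2 and Ifitm3 were lower. Irf1, which was also lower, is shown for its gamma-activated site. Each runs 5′ to 3′ on the strand of its gene, with the matched letters in capitals.
Ifit1 (chr19:34640765-34640833, plus strand): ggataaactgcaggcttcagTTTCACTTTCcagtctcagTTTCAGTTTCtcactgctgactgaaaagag
Oas3 (chr5:120777705-120777754, minus strand): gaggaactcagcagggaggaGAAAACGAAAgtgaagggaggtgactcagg
Oas1a (chr5:120907510-120907565, minus strand): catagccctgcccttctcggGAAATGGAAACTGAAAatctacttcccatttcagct
Ddx58 (chr4:40239794-40239843, minus strand): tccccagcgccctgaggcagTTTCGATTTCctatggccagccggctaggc
Isg15 (chr4:156200855-156200916, minus strand): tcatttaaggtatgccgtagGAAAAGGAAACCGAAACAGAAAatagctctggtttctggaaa
Eif2ak2 (chr17:78882525-78882574, minus strand): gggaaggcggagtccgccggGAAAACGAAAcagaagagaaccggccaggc
Stat2 (chr10:128270256-128270305, plus strand): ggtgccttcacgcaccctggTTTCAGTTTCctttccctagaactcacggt
Ifitm2 (chr7:140955978-140956027, minus strand): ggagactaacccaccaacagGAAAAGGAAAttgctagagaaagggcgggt
Ifitm3 (chr7:141010696-141010762, minus strand): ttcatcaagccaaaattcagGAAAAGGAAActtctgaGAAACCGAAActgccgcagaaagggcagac
Irf1, gamma-activated site (chr11:53769904-53769952, plus strand): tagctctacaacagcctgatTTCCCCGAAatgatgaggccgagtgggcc
Matches overlap in Isg15, where 3 share half-sites, and in Oas1a, where 2 do. In Ifitm3 a gamma-activated site also overlaps the second half-site match.

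The comparison asked how these genes differ between the inhibitor and the control group. Many antiviral effector genes were moderately higher in the inhibitor group, led by Mx1 at 2.98-fold, while the factors Stat2 and Irf1 and the abundant genes Ifitm2 and Ifitm3 were slightly lower. Of the 44 members, 20 were higher (45.5%), 6 lower (13.6%) and 18 did not pass an adjusted p of 0.05 in the quasi-likelihood test of edgeR, adjusted over all tested genes by the Benjamini-Hochberg method. Of all tested genes 20.4% were higher and 20.1% lower, 40.5% in either direction, so the share of lower members was below the background and the share of higher ones above it. The median log2 change of inhibitor against control was 0.31 over the members and -0.01 over all tested genes. The groups did not overlap in 31 members, with the inhibitor libraries above in 23 and below in 8. The same held for 52.4% of all tested genes. No member fell by a log2 change of 0.5 or more. Of the members past the threshold, 12 rose by that much, as did Ifi44 (1.04) and Isg15 (0.59), which did not pass. Changes below are log2 changes with their standard error (SE), levels are CPM scaled by TMM factors, and adjusted p-values are those of the edgeR test just named.

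**Figure D1:**
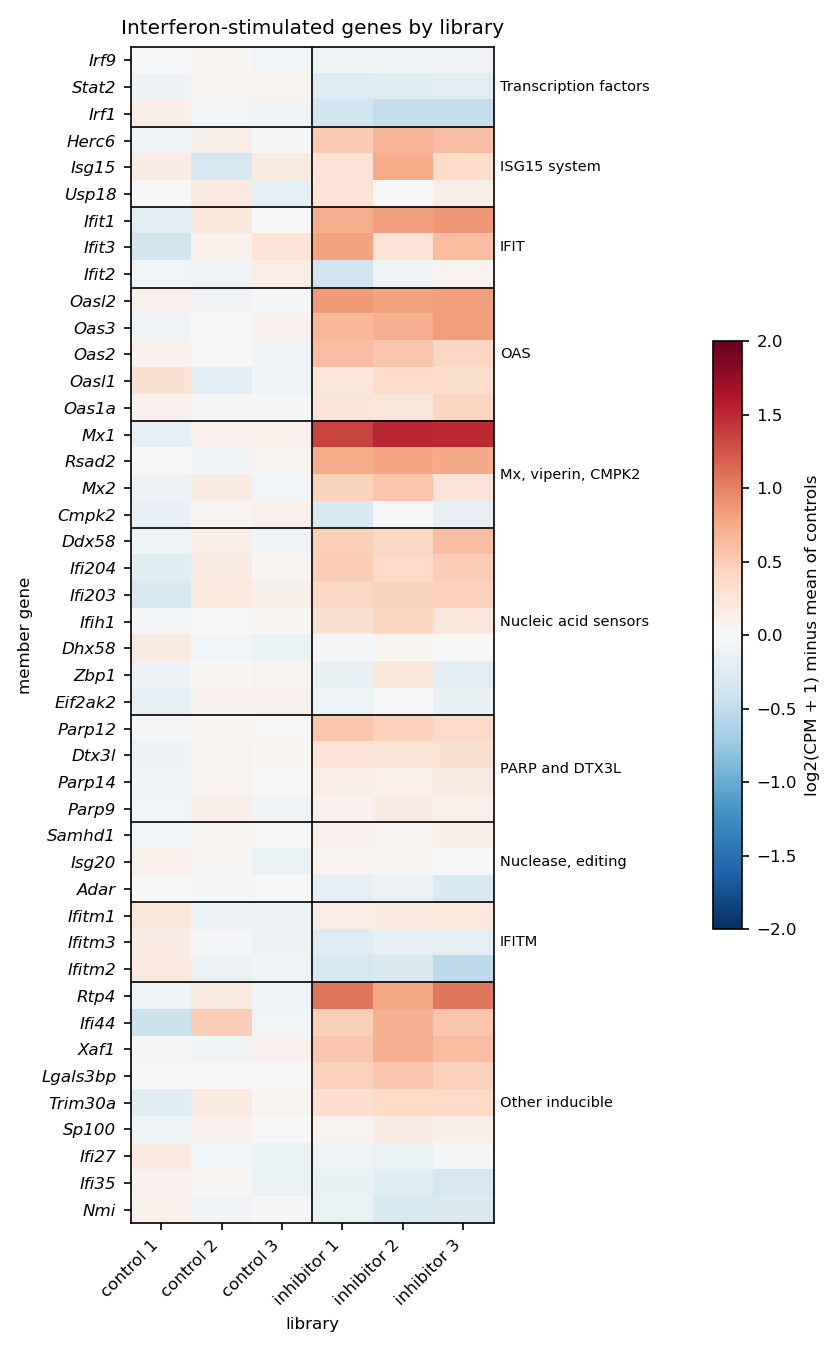
Heat map of the 44 members (rows, grouped by role) in the 6 libraries (columns), as log2(CPM + 1) minus the mean of the 3 controls, from blue (lower) to red (higher). The 3 inhibitor columns are red through most IFIT, OAS, Mx and sensor genes and blue for Stat2, Irf1 and Ifitm2.

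The transcription factors of the pathway did not rise. Stat2, a subunit of ISGF3 (chromosome 10, 128270498 to 128292853, in RefSeq GRCm38.p6 as are all gene positions here), was at 58.9, 66.5 and 67.7 CPM in control libraries 1 to 3 and at 53.3, 54.1 and 55.2 CPM in inhibitor libraries 1 to 3. Every inhibitor library lay below every control, and the change was -0.25 ± 0.07 (adjusted p = 0.0097 by edgeR). Without control library 3 it was -0.21 and no longer passed. Irf9, the DNA-binding subunit of ISGF3, was at 45.2, 46.1 and 43.4 CPM in controls and 42.4, 42.4 and 42.5 CPM in inhibitor libraries. Its groups also did not overlap, but the change of -0.08 ± 0.07 did not pass (adjusted p = 0.363 by edgeR). Irf1, an early interferon target that itself activates many antiviral genes (chromosome 11, 53770014 to 53778374), had the largest decrease among the members. It was at 55.5, 48.7 and 48.5 CPM in controls and 38.8, 36.3 and 36.4 CPM in inhibitor libraries, a change of -0.45 ± 0.08 or 1.37-fold lower (adjusted p = 2.59e-04 by edgeR), and it kept its call with any 1 library left out.

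Among the 3 members of the ISG15 system, which attaches the ubiquitin-like protein ISG15 to other proteins, Herc6 rose and Isg15 and Usp18 did not pass. Ube2l6, a gene of this system outside the members, also rose (0.91 ± 0.09). Herc6, the main mouse ligase for ISG15, was at 17.2, 19.9 and 18.1 CPM in controls and 26.9, 29.9 and 28.7 CPM in inhibitor libraries, a change of 0.63 ± 0.09 (adjusted p = 8.28e-05 by edgeR). Isg15 itself ranged from 1.95 to 3.24 CPM in controls and from 3.54 to 5.25 CPM in inhibitor libraries. These groups did not overlap either, with a change of 0.59 ± 0.23 (adjusted p = 0.0552 by edgeR), and the test was passed without control library 1 (0.68) or control library 3 (0.72) and with no filter on low counts (0.59). Usp18, which removes ISG15 and blocks the receptor, overlapped between groups at 3.76 to 5.25 and 4.49 to 5.65 CPM (0.17 ± 0.18).

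Genes of the IFIT family, whose proteins bind viral RNA and block its translation, differed among themselves although Ifit2, Ifit3 and Ifit1 lie side by side on chromosome 19 (34550550 to 34650009). Ifit1 was at 1.26, 2.05 and 1.598 CPM in controls and 3.34, 3.62 and 3.78 CPM in inhibitor libraries. Each inhibitor value exceeded each control value, and the rise was 2.18-fold (1.13 ± 0.24, adjusted p = 0.00161 by edgeR). Ifit3 was at 0.55, 1.15 and 1.41 CPM in controls and 2.52, 1.46 and 2.07 CPM in inhibitor libraries, a change of 0.95 ± 0.35 (adjusted p = 0.0378 by edgeR). The groups of Ifit3 were close, and the call was lost on leaving out control 1 (0.66), control 2 (1.03), inhibitor 1 (0.75) or inhibitor 3 (0.94). Ifit3 has a near-identical neighbour, Ifit3b, with 4 to 19 counts in controls and 18 to 25 in inhibitor libraries, so how reads were divided between the copies is uncertain. Ifit2, the most abundant of the family per length, overlapped between groups at 15.04 to 18.1 and 12.02 to 17.0 CPM (-0.14 ± 0.13).

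Oligoadenylate synthetases make the second messenger that switches on the RNA-degrading enzyme RNase L. Of the 5 members that belong to this family, 4 rose and none fell. Oasl2, a relative with a ubiquitin-like tail (chromosome 5, 114896926 to 114912245), was at 9.39, 8.20 and 8.41 CPM in controls and 16.4, 15.9 and 16.2 CPM in inhibitor libraries. The libraries of a group were tight and the groups far apart, with a rise of 1.87-fold (0.90 ± 0.11, adjusted p = 1.34e-05 by edgeR). Oas3 was at 7.58, 8.25 and 8.79 CPM in controls and 13.6, 14.2 and 15.4 CPM in inhibitor libraries, a change of 0.81 ± 0.12 (adjusted p = 7.54e-05 by edgeR). Oas2, its neighbour 3212 bases away, was at 4.77, 4.45 and 4.09 CPM in controls and 7.34, 6.95 and 6.203 CPM in inhibitor libraries, a change of 0.63 ± 0.16 (adjusted p = 0.00487 by edgeR). Neither overlapped between groups. Oas1a rose less (0.34 ± 0.11), and its call was lost on leaving out control 2 (0.32), control 3 (0.31) or inhibitor 3 (0.28). Its close copy Oas1g, outside the members, had a change of 0.14 and did not pass, so reads may be shared between these copies. Oas1b (-0.30 ± 0.30) and Oas1c (0.22 ± 0.25), also outside the members, did not pass either. Oasl1, which represses translation of Irf7, overlapped between groups at 1.10 to 2.01 and 1.90 to 2.16 CPM (0.48 ± 0.28).

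The largest rise of all members was in Mx1, a dynamin-like GTPase that blocks influenza viruses (chromosome 16, 97447035 to 97462906). Mx1 was at 5.42, 6.85 and 6.86 CPM in controls and 17.7, 19.8 and 19.6 CPM in inhibitor libraries. The lowest inhibitor library was well above the highest control, and the change was 1.57 ± 0.13 (adjusted p = 9.27e-08 by edgeR). RefSeq lists Mx1 and its neighbour Mx2 as transcribed pseudogenes in C57BL/6J, a strain known to lack working Mx proteins. Mx2 was at 2.61, 3.45 and 2.77 CPM in controls and 4.37, 4.79 and 3.72 CPM in inhibitor libraries, a smaller change of 0.54 ± 0.20 (adjusted p = 0.038 by edgeR). The call of Mx2 was lost with DESeq2 and in 4 fits that left out 1 library, control 1 (0.46), control 3 (0.50), inhibitor 1 (0.53) or inhibitor 2 (0.46). Rsad2, which encodes viperin, an enzyme that makes a chain-terminating nucleotide, was at 3.31, 3.15 and 3.57 CPM in controls and 6.27, 6.54 and 6.32 CPM in inhibitor libraries. Rsad2 rose 1.90-fold (0.93 ± 0.16, adjusted p = 3.23e-04 by edgeR). Cmpk2, a nucleotide kinase that supplies viperin, lies 12665 bases from Rsad2 on chromosome 12 and did not pass, at 7.43 to 9.17 against 6.68 to 8.52 CPM (-0.17 ± 0.14). The difference between these neighbours was not tested.

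**Figure D2:**
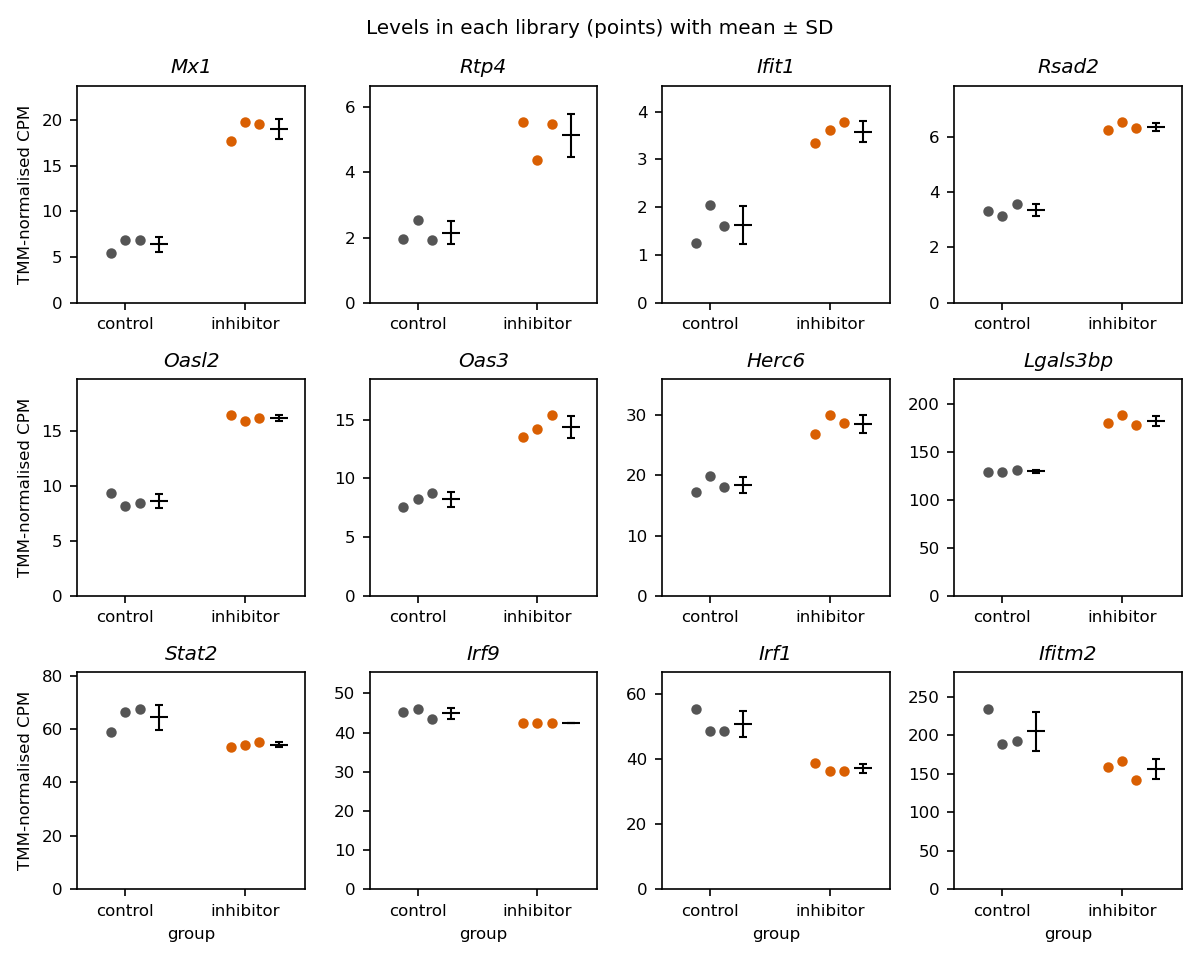
TMM-normalised CPM (vertical axis, from 0) of 12 members in each control (grey) and inhibitor (orange) library, with the mean ± SD of each group (n = 3) in black. The first 8 genes lie higher in all inhibitor libraries, and Stat2, Irf9, Irf1 and Ifitm2 lie lower, Irf9 by the least.

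Of the 7 members grouped as sensors of foreign nucleic acid, 4 rose and none fell. Ddx58, the RNA sensor RIG-I, was at 17.2, 20.5 and 17.4 CPM in controls and 26.0, 24.8 and 28.7 CPM in inhibitor libraries. The groups were apart, with a change of 0.53 ± 0.10 (adjusted p = 7.32e-04 by edgeR). Ifih1, the related RNA sensor MDA5, rose by 0.33 ± 0.09, a call lost without inhibitor library 2 (0.28), while Dhx58, a helicase of the same kind, was at 0.00 ± 0.10. The neighbouring genes Ifi203 and Ifi204 of the PYHIN family on chromosome 1, which includes DNA sensors, rose by 0.43 ± 0.11 and 0.50 ± 0.14. Control library 1 was the lowest for both, at 95.4 CPM for Ifi203 against 128.9 and 138.0 CPM in the other controls, and without it the change of Ifi203 was 0.28, still past the threshold. Of the PYHIN genes outside the members, Ifi205, Ifi207, Ifi209 and Ifi213 were higher, and Ifi211 and Mndal did not pass. Aim2 was lower (-0.21 ± 0.08), although its groups overlapped. Genes of this family resemble each other, so their counts are uncertain. Eif2ak2, the kinase PKR that stops translation, and Zbp1, a sensor of Z-form nucleic acid, did not pass (-0.08 ± 0.08 and -0.05 ± 0.25). Eif2ak2 passed as lower without control library 1 (-0.17).

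Members of the PARP9 and DTX3L group, which add ADP-ribose and ubiquitin to proteins, all had positive changes, and 2 of 4 passed. Parp12, a zinc finger ADP-ribosyltransferase with antiviral activity, was at 17.98, 19.0 and 18.8 CPM in controls and 27.7, 26.1 and 24.5 CPM in inhibitor libraries, all above the controls (0.49 ± 0.09, adjusted p = 6.14e-04 by edgeR). Dtx3l rose by 0.29 ± 0.07, from 63.8 ± 4.47 to 78.2 ± 0.96 CPM (mean ± SD, n = 3 per group). Its partner Parp9 was at 0.11 ± 0.08 and Parp14 at 0.15 ± 0.06, which passed without control library 2 (0.18). Dtx3l and Parp9 overlap by 557 bases on chromosome 16 and the strand of counting is not given, so reads there cannot be told apart.

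Of 3 genes that act on nucleotides and RNA, 1 passed, as lower. Adar, the editing enzyme that marks the cell's own double-stranded RNA, was at 129.5, 126.1 and 129.9 CPM in controls and 114.0, 118.5 and 103.9 CPM in inhibitor libraries. All inhibitor values were below the controls (-0.20 ± 0.06, adjusted p = 0.0162 by edgeR), but the call was lost without control library 3 (-0.19) or inhibitor library 3 (-0.14). Samhd1, which depletes the nucleotide supply, was at 173.2 to 185.7 and 188.0 to 195.3 CPM (0.09 ± 0.05), and the exonuclease gene Isg20 at 2.96 to 3.67 and 3.37 to 3.54 CPM (0.05 ± 0.19). Neither passed.

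Of the 3 IFITM genes, whose membrane proteins hinder the fusion of viruses with cells, 2 were lower and none was higher. Ifitm2 (chromosome 7, 140954837 to 140959686) was at 234.4, 188.8 and 192.5 CPM in controls and 159.0, 166.3 and 141.4 CPM in inhibitor libraries. It was 1.32-fold lower (-0.40 ± 0.08, adjusted p = 0.00194 by edgeR), with control library 1 the highest of all. Ifitm3 was also lower (-0.21 ± 0.07), from 102.8 ± 10.7 to 88.8 ± 3.28 CPM. Its call was lost on leaving out control 1 (-0.13) or any of inhibitor 1 (-0.18), 2 (-0.24) and 3 (-0.21). Ifitm1, which lies between them, did not pass (0.18 ± 0.09). It was at 67.0 CPM in control library 1 and 51.5 CPM in both other controls, against 62.6 to 65.0 CPM in inhibitor libraries, and passed as higher without that library (0.31). The 3 genes together took 18.8 to 23.7% of the members' counts in controls and 15.7 to 16.7% in inhibitor libraries.

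Of the 9 other inducible members, 4 rose, 1 fell and 4 did not pass. Rtp4, encoding a chaperone-like protein that limits interferon responses (chromosome 16, 23520219 to 23614222), was at 1.96, 2.55 and 1.93 CPM in controls and 5.55, 4.38 and 5.49 CPM in inhibitor libraries. This was the second largest rise, 2.40-fold (1.26 ± 0.20, adjusted p = 1.62e-04 by edgeR). Xaf1, which antagonises an inhibitor of apoptosis, was at 4.47, 4.30 and 4.89 CPM in controls and 7.04, 8.17 and 7.50 CPM in inhibitor libraries (0.73 ± 0.15, adjusted p = 0.00123 by edgeR). Lgals3bp, a secreted glycoprotein that binds galectins, was at 129.2, 128.5 and 130.8 CPM in controls and 179.6, 187.9 and 178.3 CPM in inhibitor libraries. The groups were far apart relative to their spread (0.49 ± 0.05, adjusted p = 3.01e-06 by edgeR). Trim30a, a ubiquitin ligase of innate signalling with close copies nearby, rose by 0.38 ± 0.09, with control library 1 lowest at 66.2 CPM. Ifi35 was lower (-0.25 ± 0.09), a call lost with DESeq2 and on leaving out control 1 (-0.20), control 2 (-0.23), inhibitor 2 (-0.25) or inhibitor 3 (-0.20). Its binding partner Nmi did not pass (-0.26 ± 0.11), nor did the nuclear body gene Sp100 (0.11 ± 0.06) or Ifi27 (-0.09 ± 0.10). Ifi44, with 5 to 27 counts in the 3 controls, was at 1.04 ± 0.43 and did not pass, although it did without control library 2 (1.79), with no filter on low counts (1.03) and with limma-voom (1.30).

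**Figure D3:**
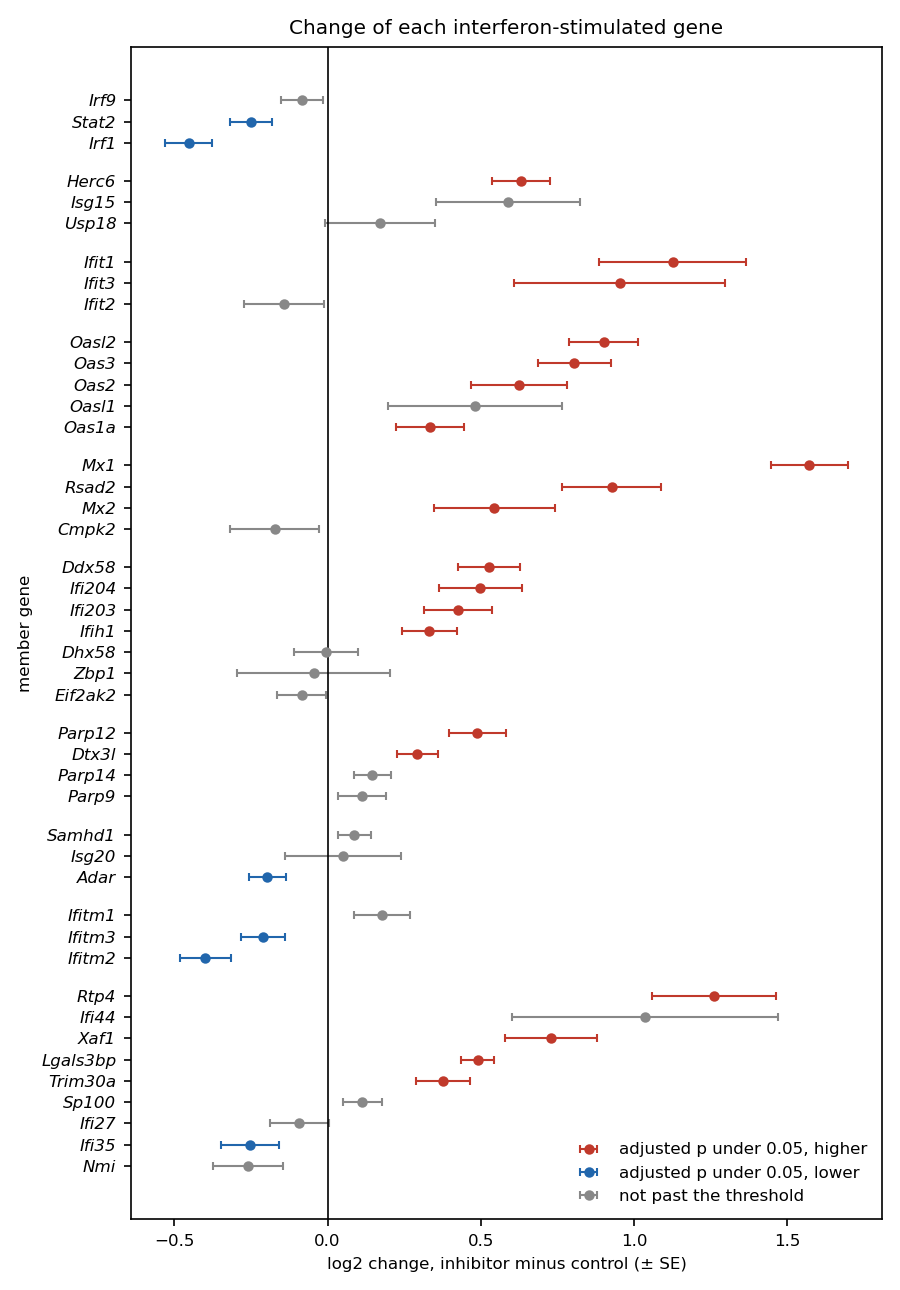
Log2 change of inhibitor against control (horizontal axis, ± SE) for each member, grouped by role from transcription factors at the top to other inducible genes at the bottom. Red marks the 20 higher members, blue the 6 lower ones and grey the 18 that did not pass the threshold.

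Levels differed widely among the members, and the direction of change differed by level. In CPM per kilobase of the longest transcript, control means ran from 0.25 for Ifi44, 0.52 for Ifit3 and 0.62 for Ifit1 to 117.2 for Samhd1, 158.7 for Ifitm3 and 327.3 for Ifitm2. When the members were split at their median level over all libraries (21.2 CPM), 12 of the 22 below it passed as higher and 0 as lower (median change 0.57). Changes were positive in 17 of these 22. Of the 22 above it, 8 passed as higher and 6 as lower (median 0.11), and 13 changes were positive. Among all tested genes split at the same level, 21.8% were higher and 12% lower below it (median 0.07), and 19.5% were higher and 25.7% lower above it (median -0.03). The members' counts together made up 0.173 to 0.181% of all counts in control libraries and 0.188 to 0.194% in inhibitor libraries.

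**Figure D4:**
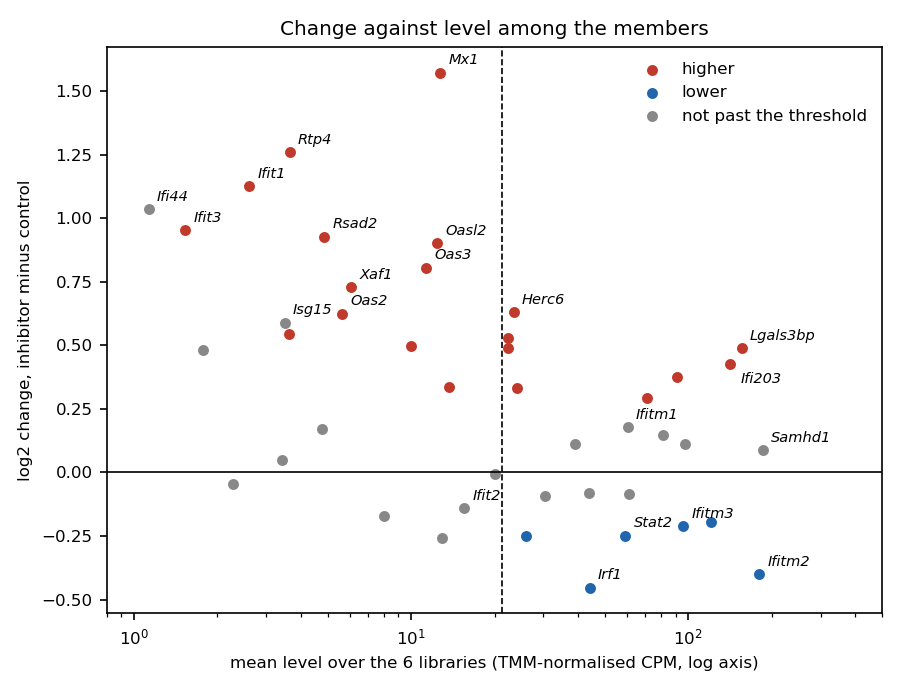
Log2 change (vertical axis) of each member against its mean TMM-normalised CPM over the 6 libraries (horizontal log axis), with the members' median level of 21.2 CPM dashed. No member to the left of the line passed the threshold as lower, although some changes there were negative, and all 6 that passed as lower lie to its right.

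The calls can be set beside the promoter matches. Of the 14 with GAAANNGAAA, 9 rose, 3 fell and 2 stayed short of the threshold (median change 0.40). The 19 matched members without it held 6 that rose and 3 that fell (median 0.11). Of the 9 with TTCNNNGAA, 1 was higher (Oas1a), 4 were lower (Irf1, Ifi35, Ifitm3 and Adar) and 4 stayed short of the threshold. Their median was -0.14, against 0.49 for the 24 without it. Genes with a motif among all those tested were near the background. With GAAANNGAAA, 21.8% of 400 genes were higher and 19.2% lower, and with TTCNNNGAA, 19.3% of 855 were higher and 22.1% lower. These counts were not tested against each other.

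Few members carry a match to the inhibited microRNA. The mature miR-31-5p (RefSeq, GRCm38.p6) is shown with its seed, bases 2 to 8, in capitals, followed by the matching stretches in the longest annotated 3′ untranslated regions of the members, with the match to the seed in capitals.
mmu-miR-31-5p: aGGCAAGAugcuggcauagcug
Mx2: tgagtactctTCTTGCCcaccatttag
Xaf1: atactttggcTCTTGCCggctttgggc
Ifi27: taaaccgagtTCTTGCC
These 3 of 44 members (6.82%) compare with 13.2% of the 12260 tested genes that have such a region in GENCODE M21. The regions of the members were shorter, with a median of 924.5 bases against 1184 bases. Mx2 and Xaf1 were higher in the inhibitor group and Ifi27 did not pass. The difference between these shares was not tested, and a match of letters does not show that the microRNA acts there.

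Genes of interferon signalling moved in both directions, and interferon transcripts were hardly seen. Of 27 tested signalling genes, 7 rose (25.9%), 6 fell (22.2%) and 14 stayed short of the threshold (48.1% called, median 0.01). Of all tested genes, 20.4% were higher and 20.1% lower (40.5% called), so these shares were not far from the background. The receptor gene Ifnar1 was at 0.04 ± 0.06. Ifnar2 was lower at -0.15 ± 0.05, a call that held without control library 1 but with none of the others left out, control 2 (-0.13), control 3 (-0.17), inhibitor 1 (-0.14), inhibitor 2 (-0.15) and inhibitor 3 (-0.15). The kinase genes Jak1 and Tyk2 were at 0.10 ± 0.05 and 0.03 ± 0.06. Irf7, the factor that amplifies interferon alpha production, was at -0.11 ± 0.14, and the feedback inhibitor gene Socs1 at 0.54 ± 0.29, neither past the threshold, although Socs1 passed without inhibitor library 2 (0.81). Among the smallest p-values were the phosphatase genes Ptpn11 (0.60 ± 0.05) and Ptpn6 (-0.43 ± 0.05), the kinase gene Ikbke (-0.77 ± 0.08) and the RNA sensor gene Tlr7 (-0.90 ± 0.08), which is also a plasmacytoid dendritic cell marker. Of 19 interferon genes, 15 had no count in any library, so that each was under 0.141 to 0.177 CPM, taking 3 counts per library as the limit. Ifnb1 and Ifng had 3 counts each, all in inhibitor library 2. Ifnk and Ifnz had at most 2 counts in a library. Such limits cover counting error only.

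Related gene groups differed in their counts, to be read beside the 20.4% higher and 20.1% lower of all tested genes. Of 64 tested interferon-stimulated genes outside the 44, 21 (32.8%) rose and 13 (20.3%) fell, the median being 0.09. Among them the nucleotidase gene Nt5c3 (0.94 ± 0.06), Ube2l6, the conjugating enzyme of the ISG15 system (0.91 ± 0.09), and Slfn5 (0.71 ± 0.09) rose, and Ifi27l2a fell by 1.13 on the log2 scale. A list of 22 interferon gamma targets, mostly GBP and IRG GTPases that attack the vacuoles of intracellular microbes, had 14 tested genes, of which 12 rose and 1 fell (median 0.51). Gbp4 rose by 2.75 ± 0.24 from 0.90 CPM, Gbp9 by 1.98 ± 0.18, Gbp2 by 1.68 ± 0.12 and Igtp by 1.21 ± 0.07. Of 24 genes of MHC class I presentation, 6 were higher and 3 lower (median 0.03). The class I genes H2-Q6, H2-Q7 and H2-Q4, whose sequences are alike and counts uncertain, rose by 0.86 ± 0.08, 0.68 ± 0.09 and 0.28 ± 0.07, and the chaperone gene Calr fell by 0.49. The differences between these lists and the members were not tested.

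**Figure D5:**
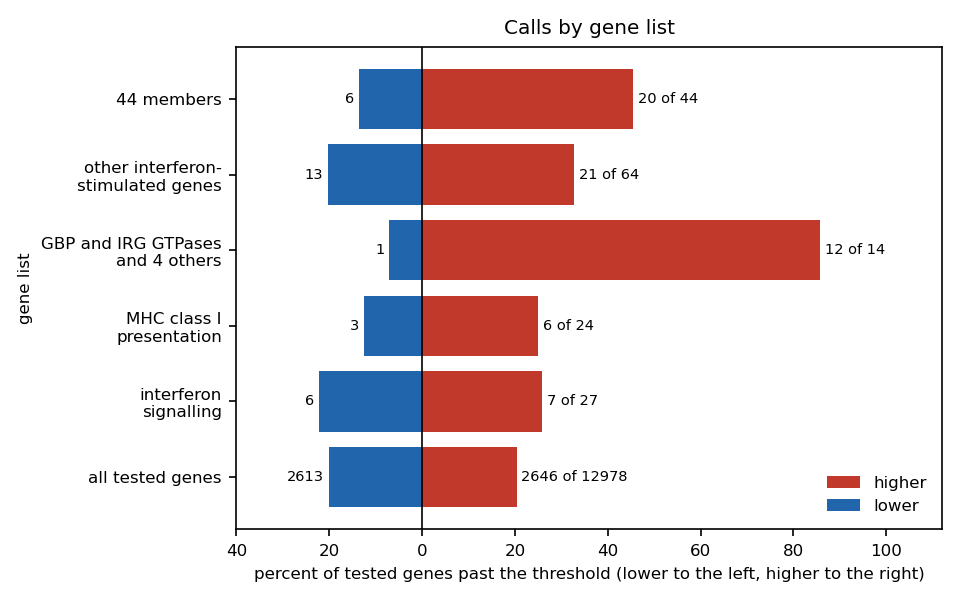
Percent of tested genes past the threshold in each list, higher to the right (red) and lower to the left (blue), with the number of genes beside each bar. The 44 members (20 higher, 6 lower) lie between the other interferon-stimulated genes (21 and 13 of 64) and the GBP and IRG list (12 and 1 of 14).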

How the data were processed

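Expression was measured by RNA sequencing in 3 control and 3 inhibitor libraries. The authors deposited read counts per RefSeq gene symbol, unnormalised per the file headers and values. They also deposited RPKM values, used here only to check counts: the totals they imply exceed the summed counts by 0.22 to 8.68%. Per the submitters' processing notes, the genome build was mm10 and base calls were converted with bcl2fastq 2.20. No label or header names the aligner, counter or strand setting. There were 0 columns of other series.

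Genes were kept by filterByExpr (minimum count 10, minimum total 15), scaled by TMM and tested over all genes with edgeR 4.0.16 (robust quasi-likelihood, R 4.3.3). P-values were adjusted by Benjamini-Hochberg, with calls at 0.05. The SE is the log2 change divided by the root of the F statistic. The procedure was also run on simulated data, but the outcome is not given here and no result rests on it. A gene that did not pass may still differ between the groups. Members, lists and tests were chosen with earlier results of these data known. The members described in full are Stat2, Irf9 and Irf1, those past the threshold with a log2 change of at least 0.5 and a mean of 10 counts, and the one with the smallest p of each role. Of each other list, up to 4 genes with the smallest p are named, with signalling genes chosen by name and the interferon genes, of which 1 gene is not reported here. Genes named in the check of the cell label, Rn45s and relatives of members were chosen outside this rule, after values were seen. Those relatives are Ifit3b, Oas1b, Oas1c, Oas1g and the PYHIN genes outside the members. Python 3.11.15 was used for sequences. Replicate numbers are not said to pair libraries. Alternatives were RLE factors, other filters and thresholds, DESeq2 1.42.0, limma-voom (limma 3.58.1), a replicate block, and leaving out libraries.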

Additional observations from a re-analysis of the deposited data

How the results depend on the processing

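Across 15 alternatives the count of called genes, 5259 in the fit reported, ran from 2025 (with a minimum log2 change of 0.5) to 6365 (at an adjusted p of 0.1). With that minimum, 12 members were higher and 0 lower. Leaving out 1 library gave 4058 to 5692 called genes, 18 to 20 higher and 3 to 5 lower members and medians of 0.27 to 0.32. Without control libraries 1 and 3 together, 17 members rose and 4 fell (median 0.20). With the replicate number as a block, 5673 genes, 22 higher and 6 lower members were called, Isg15 (0.59) and Ifi44 (1.13) among the higher. Deviations of libraries with the same number correlated at 0.01 to 0.06, so the numbers are not taken to pair libraries. Control libraries 1 and 3 correlated best with their own number and control library 2 with inhibitor library 3. Apart from the minimum change, which 8 higher and all 6 lower members missed, 13 of the 20 higher members kept their call under all 14 other alternatives, as did Ifitm2 and Irf1 of the 6 lower ones. Ifit1 (0.80) and Ifi204 (0.31) lost their call without control libraries 1 and 3. Ifi203 lost it with no filter on low counts.

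Signs changed only in genes that did not pass. Dhx58 was at 0.0016 with RLE, 0.0017 with the stricter filter, 0.0016 with DESeq2, 0.0026 with limma-voom and 0.047 without control libraries 1 and 3. With 1 library left out, changes ran from -0.071 to 0.094 for Dhx58, from -0.031 to 0.116 for Isg20, from -0.159 to 0.010 for Ifi27, from -0.271 to 0.081 for Zbp1, from -0.017 to 0.074 for Ifnar1 and from -0.0080 to 0.083 for Tyk2. Without control libraries 1 and 3, Usp18 was at -0.059, Parp9 at -0.022, Ifnar1 at -0.035 and Irf7 at 0.00084. The cause of these shifts was not tested. Depth limits the members of lowest level, such as Ifi44 and Ifit3, most.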
